A study of Saccharomyces cerevisiae with 32 samples.

Results

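The histone genes of budding yeast, Saccharomyces cerevisiae, were measured through the cell cycle of a phosphomutant strain (4P) and its control (WT). The set held the 8 core histone genes, the linker histone gene HHO1 and the H2A.Z gene HTZ1, which are 10 of the 6205 genes tested. They were taken by gene symbol, matched to the systematic name on the array (HTA1 is YDR225W, HTA2 YBL003C, HTB1 YDR224C, HTB2 YBL002W, HHT1 YBR010W, HHT2 YNL031C, HHF1 YBR009C, HHF2 YNL030W, HHO1 YPL127C and HTZ1 YOL012C). Each gene had 1 probe, printed as 2 spots, and all 10 passed the filter on low signals. The 4P strain, YBL289, carried hcm1-15A-3HA and tos4-9A-3FLAG, together with yox1-9A-3V5 and yhp1-13A-13MYC. The WT strain, YBL320, carried HCM1-3HA, TOS4-3FLAG, YOX1-3V5 and YHP1-13MYC, so the tags were common to both strains and each genotype was a single strain. Both cultures were arrested in G1 by alpha-factor, the mating pheromone, and after release a sample was taken every 15 min, at 0 to 105 min. Each of the 16 groups held 2 arrays, which makes 32 arrays and 4 time courses. The second channel of every array held RNA of MW836a, a strain in mid-log growth with untagged factors. Each value below is the log2 ratio of synchronised RNA to this reference, so 0 marks the level in an unsynchronised culture. The series title ascribes the regulation of these S-phase transcription factors to the kinase Cdk1, and the question here was how the histone transcripts ran in the mutant.

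Histones package DNA into nucleosomes, each built from an octamer of H2A, H2B, H3 and H4. Yeast has a pair of genes for each core histone, arranged as divergent couples that share a promoter: HTA1 with HTB1, HTA2 with HTB2, HHT1 with HHF1 and HHT2 with HHF2. Their transcripts are made at the G1/S boundary and in S phase, when new DNA has to be packaged, and are kept low otherwise by the HIR complex, which is known to act on the couples other than HTA2 with HTB2. HHO1 encodes the linker histone H1, and HTZ1 encodes H2A.Z, a variant of H2A that the SWR1 complex puts into nucleosomes near gene starts. Hcm1 is a forkhead activator of late S-phase genes, Yox1 and Yhp1 are homeodomain repressors, and Tos4 is a protein with a forkhead-associated (FHA) domain.

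The signals behind these values were bright. In the channel of the synchronised RNA all 10 probes were well above background on all 32 arrays. On the 4P array at 105 min, replicate 1, HTB2, HHT1, HHT2 and HTZ1 had both spots marked as outliers by the scanner software and have no value, so their 4P mean at 105 min is that of 1 array. The 4P array at 90 min, replicate 2, had 6 of its 20 histone spots saturated, that at 30 min, replicate 2, had 3, and the WT array at 30 min, replicate 2, had 1. HTA1 was also saturated in the reference channel on 7 arrays, all of WT replicate 1. The arrays lay on 5 slides that largely coincided with genotype. The alpha-factor response genes FUS1, AGA1 and FIG1 were highest at 0 min in both genotypes. The MATa genes STE2, MFA1 and MFA2 were well above background on all 32 arrays, as were STE3 and SAG1 of the MATalpha list, while MF(ALPHA)1 was so on 13. The labels do not say whether the 2 arrays of a group came from separate cultures, so the p-values measure the spread between arrays, which may be technical.

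All 8 core histone genes ran through 2 waves, with a first peak at 30 min and a second at 90 min. This held in each of the 4 time courses, that is in 16 of 16 combinations of gene and course in 4P and in 16 of 16 in WT. All 10 histone genes changed over time in 4P and all 10 in WT (limma's moderated F test, Benjamini-Hochberg adjusted p of at most 3.83e-06 in 4P and 3.17e-06 in WT). The same test called 40.4% of all genes in 4P and 35.6% in WT. The range over the 8 group means ran from 2.62 (HHF2) to 3.97 (HTA1) log2 units for the core genes in 4P and from 2.46 (HHF2) to 3.81 (HTA1) in WT. The median range of all genes was 0.63 in 4P and 0.61 in WT. The range of HTA1 rests on a 30 min peak with saturated spots in both genotypes, so it has no exact value. HHT1, which had no saturated spot, ranked 33rd of 6205 genes by range in 4P and 55th in WT.

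**Figure D1:**
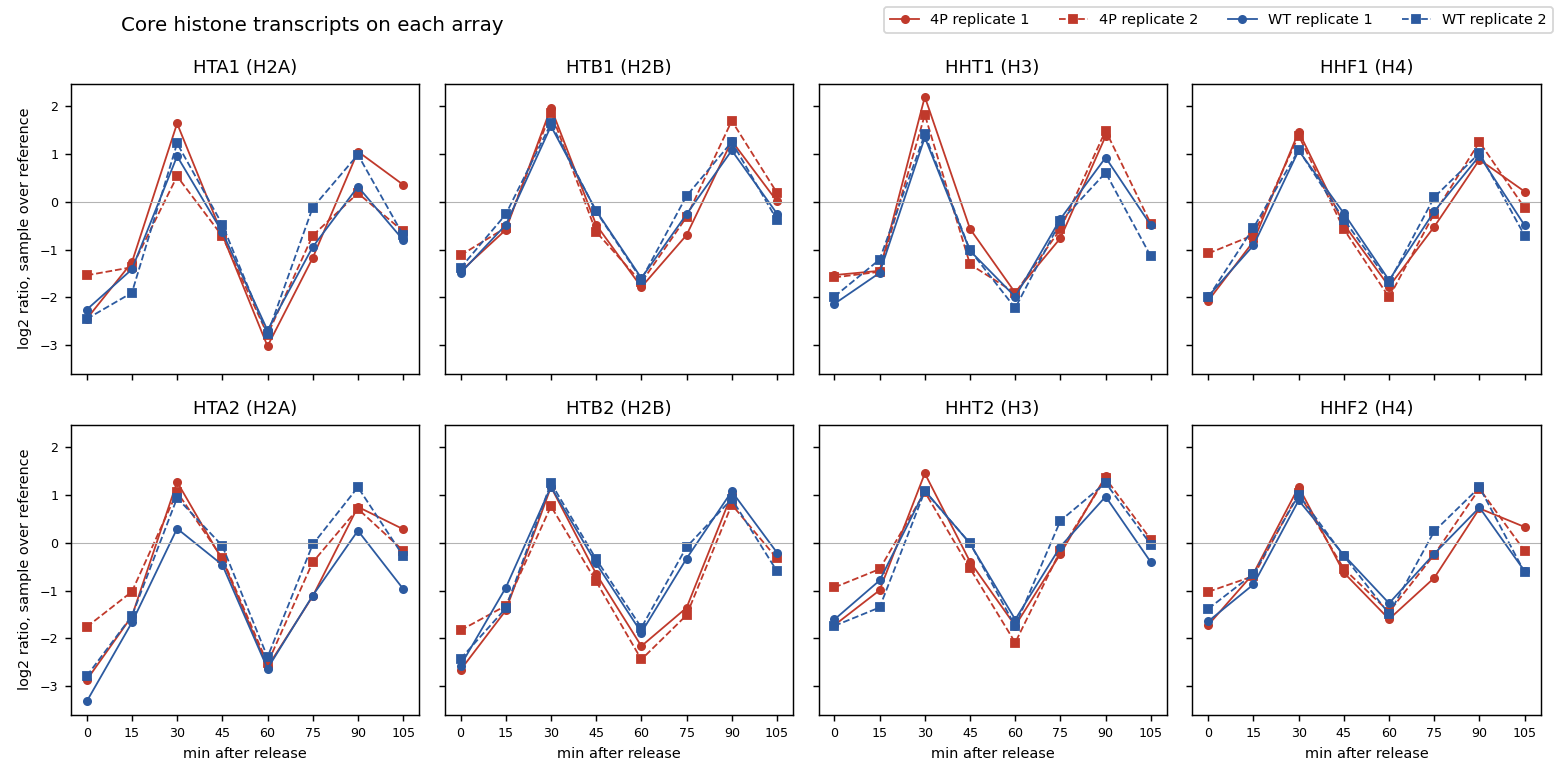
Log2 ratio of the synchronised sample over the reference (y axis) against min after release (x axis) for the 8 core histone genes, with 4P in red and WT in blue and 1 line per time course. Each of the 8 genes peaks at 30 and 90 min in all 4 courses, and HTB2 at 75 min stands lower in both 4P courses (-1.36 and -1.51) than in both WT courses (-0.33 and -0.09).

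Among the H2A genes, HTA1 at 30 min stood at 1.63 and 0.53 on the 2 arrays in 4P, against 0.95 and 1.22 in WT. At 60 min it stood at -3.01 and -2.78 in 4P, against -2.68 and -2.77 in WT. The order of the 4 arrays at 30 min is not settled, since both HTA1 spots were saturated in the sample channel of 4P replicate 2 (the 0.53) and in the reference channel of WT replicate 1 (the 0.95), and 1 sample spot was in WT replicate 2. All 4 arrays were far below the reference at 60 min. HTA2 at 30 min stood at 1.27 and 1.05 in 4P, against 0.29 and 0.93 in WT. Its lowest point was the arrest itself in 3 of the 4 courses, with -2.86 and -1.76 in 4P and -3.31 and -2.78 in WT at 0 min. The HTA1 to HTA2 difference in range was 0.51 and -0.27 in the 2 courses in 4P and 0.02 and 0.04 in WT. With both HTA1 spots and 1 HTA2 spot saturated at the 30 min peak of 4P replicate 2, it is not settled which H2A gene had the larger range.

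Of the H2B genes, HTB1 reached 1.96 and 1.86 at 30 min in 4P, against 1.57 and 1.63 in WT. HTB2 reached 1.16 and 0.76 in 4P, against 1.16 and 1.24 in WT. At 60 min HTB1 stood at -1.78 and -1.69 in 4P and at -1.60 and -1.62 in WT, and HTB2 at -2.16 and -2.44 in 4P and at -1.88 and -1.77 in WT. At 30 min HTB1 stood higher on both 4P arrays than on both WT arrays, as did 27.6% of all genes. At 60 min both H2B genes lay lower on both 4P arrays, as did 18.6% of all genes. None of these differences was called in limma (adjusted p of 0.437 for HTB1 at 30 min, and of 0.989 for HTB1 and 0.906 for HTB2 at 60 min). In WT the range of HTB2 exceeded that of HTB1 in both courses (3.73 and 3.67 against 3.17 and 3.26), while in 4P HTB1 had the smaller range in replicate 1 (3.74 against 3.82) and the larger in replicate 2 (3.54 against 3.23).

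Of the H3 genes, HHT1 had the wider measured swing in all 4 courses, which is not settled for 4P replicate 2. HHT1 at 30 min reached 2.19 and 1.81 in 4P, against 1.34 and 1.40 in WT. HHT2 reached 1.44 and 1.06 in 4P, against 1.08 and 1.07 in WT. The range of HHT1 exceeded that of HHT2 by 0.91 and 0.29 in 4P and by 0.78 and 0.64 in WT. The 0.29 is not exact, since 1 HHT2 spot was saturated at the 90 min peak of 4P replicate 2. By 45 min HHT1 stood at -0.57 and -1.31 in 4P and at -1.03 and -1.01 in WT.

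Of the H4 genes, HHF1 at 30 min stood at 1.46 and 1.38 in 4P, against 1.07 and 1.08 in WT. HHF2 stood at 1.16 and 1.03 in 4P, against 0.88 and 1.00 in WT. The range of HHF1 was larger than that of HHF2 in each course, by 0.65 and 0.80 in 4P and by 0.52 and 0.43 in WT. HHF2 had the smallest range of the 8 core genes in each of the 4 courses. The H3 and H4 genes of each kind encode the same protein, and the coding sequences within each pair of core genes are alike. The probe sequences were not used here, so cross-hybridisation within a pair was not examined.

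**Figure D2:**
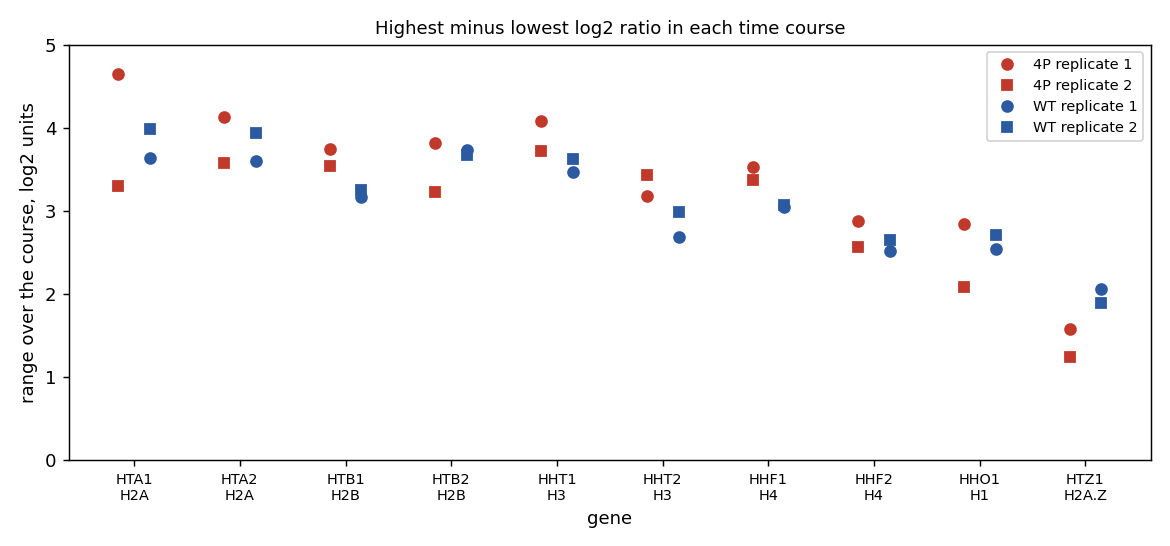
Range of each histone gene, as the highest minus the lowest log2 ratio of a time course (y axis), with 4P in red left of WT in blue and 1 point per course. HHT1 lies above HHT2 and HHF1 above HHF2 in all 4 courses, and HTZ1 has the smallest ranges (1.58 and 1.24 in 4P, 2.06 and 1.89 in WT). The HHT2 point of 4P replicate 2 is not exact, since its peak at 90 min had 1 saturated spot.

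The steps between successive samples date the waves. From 0 to 15 min all 10 genes were higher, and 6 rose in 4P and 7 in WT (limma contrasts, adjusted p under 0.05 over all genes). Of all genes 8.7% rose at that step in 4P and 9.15% in WT. HHO1 made the largest of these steps in both genotypes, 1.48 ± 0.30 (SE) in 4P with an adjusted p of 0.00112 and 1.53 ± 0.30 in WT with an adjusted p of 0.0008. The count in 4P was 1 without the 4P array at 0 min, replicate 1, and 3 without that at 15 min, replicate 2, and the count in WT was 4 without the WT array at 0 min, replicate 1.

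The main rise came from 15 to 30 min, when 9 of the 10 genes rose in 4P and 10 in WT (of all genes, 6% in 4P and 10.6% in WT). HHT1 had the largest step in 4P, 3.45 ± 0.21 with an adjusted p of 7.94e-10. In WT its step was 2.72 ± 0.21 with an adjusted p of 2e-08, next to 2.74 ± 0.37 for HTA1. HHO1 was the gene that did not pass in 4P, with an adjusted p of 0.11, against 0.0116 in WT.

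The fall had 2 parts. From 30 to 45 min all 8 core genes fell in 4P, with steps from -1.50 (HTA2) to -2.94 (HHT1), and 7 of them fell in WT, where HTA2 at -0.88 ± 0.37 had an adjusted p of 0.242. Of all genes 4.87% fell at that step in 4P and 3.17% in WT. HHO1 and HTZ1 were not called in either genotype, with HHO1 at -0.45 and -0.43 and HTZ1 at 0.09 and 0.38 in 4P and in WT. From 45 to 60 min 9 genes fell in 4P and 10 in WT (of all genes, 1.27% in 4P and 2.64% in WT). In that interval HTZ1 fell by 0.68 ± 0.14 in 4P with an adjusted p of 0.00723 and by 0.95 ± 0.14 in WT with an adjusted p of 0.000136.

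The second wave rose over 2 steps. From 60 to 75 min 8 genes rose in 4P and 9 in WT (of all genes, 7.4% in 4P and 4.03% in WT), and all 8 core genes were among them in both genotypes. HHO1 had a step of 0.49 ± 0.30 in 4P (adjusted p = 0.334) and of 1.09 ± 0.30 in WT (adjusted p = 0.0279), and the difference between these steps was not tested. HTZ1 was called in neither (0.20 in 4P and 0.06 in WT). From 75 to 90 min 9 rose in 4P and 7 in WT (of all genes, 1.85% in 4P and 1.63% in WT). Between 90 and 105 min 6 fell in 4P and 7 in WT (of all genes, 2.4% in 4P and 1.39% in WT), all of them core genes. The count from 75 to 90 min in WT was 4 without WT replicate 1 at 75 min or WT replicate 2 at 90 min. That from 90 to 105 min in 4P was 3 without 4P replicate 2 at 90 min and 2 without 4P replicate 2 at 105 min.

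The second peak was compared with the first as 90 minus 30 min. The contrast called 0 of the 10 genes in each genotype in limma, with an unadjusted p under 0.05 for 2 of them in 4P and 3 in WT (11.1% of all genes in 4P and 11.7% in WT). Of all genes 2.21% were called in 4P and 2.1% in WT. The core genes had a median of -0.39 in 4P and of -0.15 in WT, where the median of all genes was 0.00 in 4P and -0.01 in WT. In 4P replicate 2, HTA1, HTA2, HTB1 and HHT2 had saturated sample spots at 90 min, as had HTA1 and HTA2 at 30 min. The core median in 4P is thus not exact, and its difference from that in WT was not tested. HHT1 came nearest, with -0.58 ± 0.21 in 4P (adjusted p = 0.231) and -0.61 ± 0.21 in WT (adjusted p = 0.184). It was called in both genotypes on the scanner log ratios, at -1.18 in 4P and -1.01 in WT, and with the deposited value table, at -1.21 in 4P and -0.98 in WT, with adjusted p values of 0.0112 to 0.0423.

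HHO1, the linker histone gene, had a broader course than the core genes. It stood at -1.94 and -1.79 at 0 min in 4P and at -1.60 and -1.99 in WT, its lowest values in every course. At 30 min it stood at 0.39 and 0.29 in 4P, against 0.94 and 0.72 in WT, and at 45 min at -0.18 and -0.03 in 4P, against 0.80 and 0.00 in WT. The 2 genotypes did not overlap at either time, but the WT arrays at 45 min lay 0.80 apart. Of all genes 27.8% at 30 min and 22.7% at 45 min had 4P arrays below WT arrays. Neither HHO1 difference was called in limma (adjusted p of 0.497 at 30 min and 0.892 at 45 min). The WT means at 30, 45, 75 and 90 min (0.83, 0.40, 0.38 and 0.68) were neighbours whose arrays overlapped, so the order of these levels is not settled. The second peak fell at 105 min in the pair of 4P courses (0.90 and 0.27, close to 0.83 and 0.25 at 90 min) and at 90 min in those of WT. Its range was 2.45 in 4P and 2.63 in WT.

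HTZ1, the H2A.Z gene, had a shallow course, with a later first peak than the core genes in WT. In WT it peaked at 45 min in both courses (0.26 and 0.32), 1 sample after the core genes, and again at 90 min (0.34 and 0.25). In 4P its first peak was at 30 min in replicate 1 (-0.38) and at 45 min in replicate 2 (-0.54), and its second at 90 min in replicate 1 (-0.47), which has no value at 105 min, and at 105 min in replicate 2 (-0.38). HTZ1 stayed below the reference level on all 15 of its 4P arrays and lay above it at 45, 90 and 105 min in WT. At 0 min the genotypes overlapped, with -1.96 and -1.62 in 4P and -1.71 and -1.57 in WT. The range was 1.41 in 4P and 1.94 in WT, the smallest of the 10 genes in both.

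**Figure D3:**
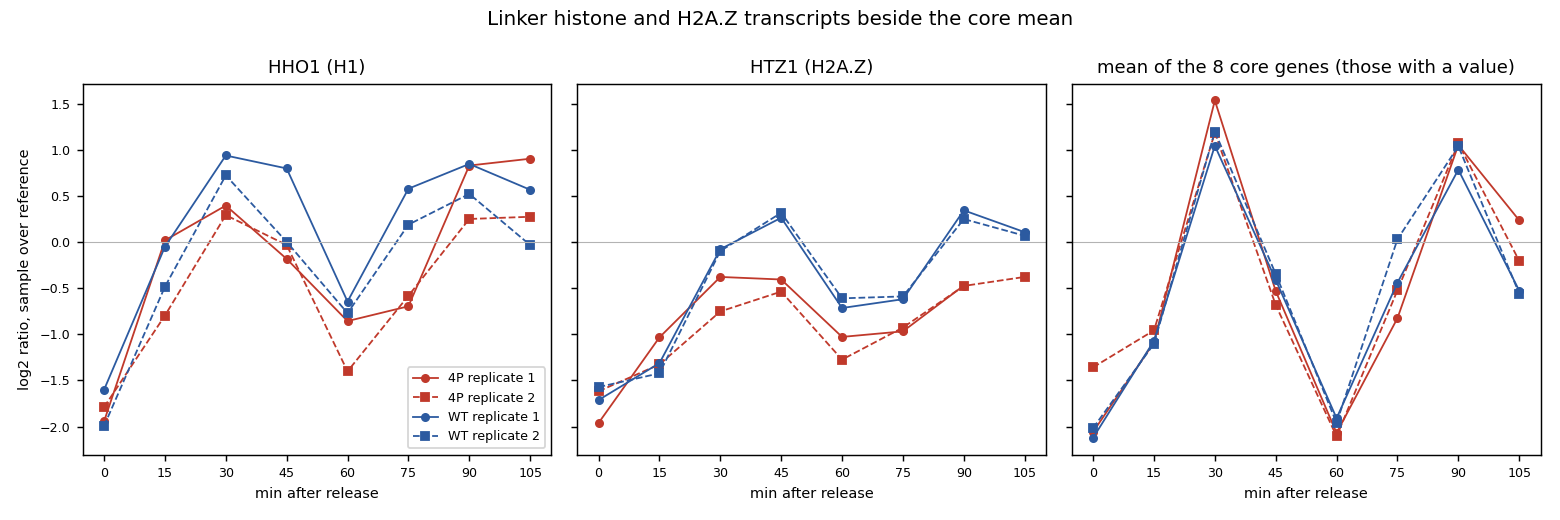
Log2 ratio over the reference (y axis) against min after release (x axis) for HHO1, HTZ1 and the mean of the core genes with a value, with 4P in red and WT in blue and 1 line per time course. HTZ1 lies lower in 4P from 30 min on, while the core mean peaks at 30 and 90 min in all 4 courses.

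The comparison of the genotypes gave few calls. The test of whether the difference depended on time called 0 of the 10 genes in limma, where 6 had an unadjusted p under 0.05, as did 4.08% of all genes, and it called 0.0806% of all genes. The lowest adjusted p values were 0.292 for HTZ1, 0.352 for HTB2 and 0.414 for HTB1. Over the whole course, with each of the 4 courses as 1 value, 0 of 10 were called and 0.0161% of all genes. HTZ1 had course means of -0.89 and -0.99 in 4P and of -0.55 and -0.53 in WT, a difference of -0.40 ± 0.10 (adjusted p = 0.428). HTB2 stood at -0.87 and -0.91 in 4P and at -0.56 and -0.55 in WT, a difference of -0.33 ± 0.09 (adjusted p = 0.428). For HTB2, HHT1, HHT2 and HTZ1 these means leave out 105 min. Both 4P courses lay below both WT courses for HTB2 and HTZ1. They lay above both WT courses for HHT1 (-0.38 and -0.51 in 4P, against -0.68 and -0.69 in WT). For HHF1 they did so narrowly (-0.3897 and -0.2642 in 4P, against -0.4315 and -0.3907 in WT). The share of all genes with such courses was not determined. With the replicate number as a block, which is also the dye orientation in every group, HTB2, HHO1 and HTZ1 were called lower (adjusted p of 0.0251, 0.0345 and 0.0164), where 12.5% of all genes were called.

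At single times 3 differences passed the test, all lower in 4P: HTZ1 at 45 min, and HTB2 and HHO1 at 75 min. At 0, 15, 30, 60, 90 and 105 min limma called 0 of 10 genes, where 1, 0, 2, 2, 2 and 4 had an unadjusted p under 0.05, as did 7.62%, 14.3%, 12.5%, 5.17%, 6.46% and 8.53% of all genes. Over all genes those times had 0.113%, 0.113%, 0.0967%, 0.451%, 0.0322% and 0.371% called. Fewer cells in S phase and less RNA per cell cannot be told apart in these bulk cultures.

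**Figure D4:**
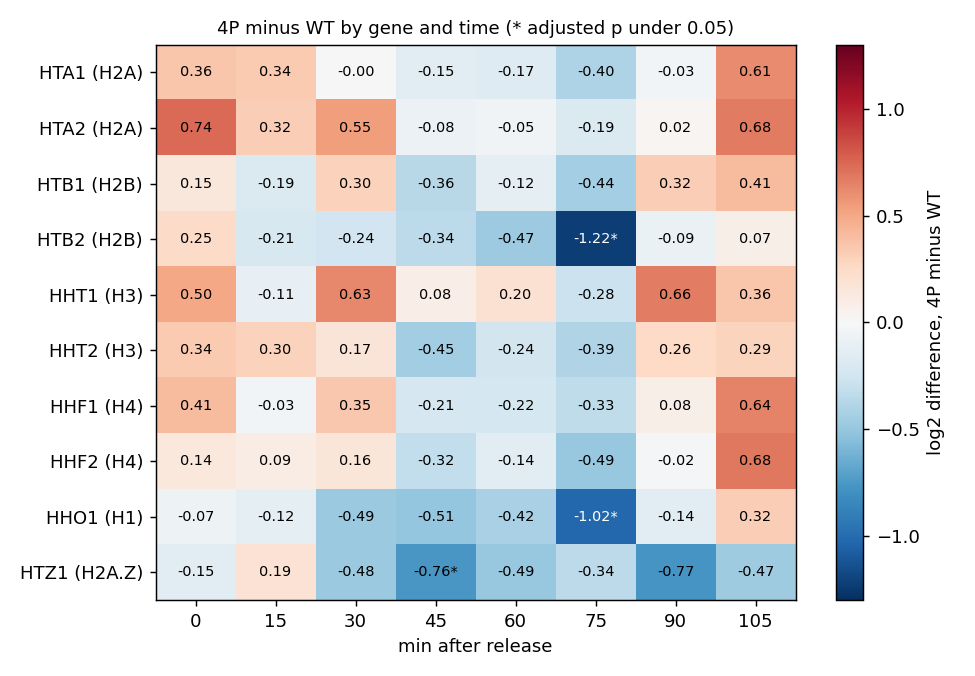
Difference of the group means, 4P minus WT, in log2 units (colour and printed value) for the 10 histone genes (rows) at the 8 times (columns), with a star where the adjusted p was under 0.05. The 3 starred differences are HTZ1 at 45 min and HTB2 and HHO1 at 75 min, all lower in 4P.

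HTZ1 at 45 min stood at -0.41 and -0.54 in 4P, against 0.26 and 0.32 in WT. All 4P arrays lay below all WT arrays, and the means were -0.47 ± 0.09 in 4P and 0.29 ± 0.04 in WT (SD, n = 2 each). The difference of -0.76 ± 0.14 (SE), a level in 4P of 0.59 times that in WT, had an adjusted p of 0.0263, where 0.161% of all genes were called at that time and 0.145% called lower. It was -0.67 within the 1 slide that held both genotypes at that time (replicate 1) and -0.85 across slides (replicate 2), and -0.75 with slide as a block (adjusted p = 0.259). The call was lost without any 1 of the 4 arrays at 45 min (adjusted p of 0.184 to 0.368), with median centring (adjusted p = 0.134) and when the log ratios of the scanner were used (adjusted p = 1), with values from -0.83 to -0.67.

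HTZ1 was lower in 4P at 7 of the 8 times, and its 4P arrays lay below its WT arrays at the 6 times from 30 min on. Taken singly, these times had 15% to 27.8% of all genes with 4P arrays below WT arrays. At 90 min HTZ1 stood at -0.47 and -0.48 in 4P, against 0.34 and 0.25 in WT, a difference of -0.77 ± 0.14 with an adjusted p of 0.055. The difference was -0.48 ± 0.14 at 30 min and -0.49 ± 0.14 at 60 min, with adjusted p values of 0.268 and 0.259. It was -0.47 ± 0.18 at 105 min, from 1 array in 4P (adjusted p = 0.426). These differences did not pass over all genes. At 90 min the 3 mitosis markers (CLB2, CDC5 and SWI5) averaged -0.31 and -0.23 in 4P, against 0.31 and 0.49 in WT, with 3 of 3 lower in 4P, and the 4 G1/S markers (CLN2, RNR1, POL1 and CLB6) averaged 1.13 and 0.67 in 4P, against 0.41 and 0.44 in WT, with 4 of 4 higher. None of these 7 was called, and their part in the HTZ1 difference was not tested. At 15 min HTZ1 was the other way, with -1.03 and -1.33 in 4P, against -1.31 and -1.42 in WT, and the arrays overlapped.

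HTB2 at 75 min stood at -1.36 and -1.51 in 4P, against -0.33 and -0.09 in WT. The groups were well apart, with means of -1.44 ± 0.11 in 4P and -0.21 ± 0.17 in WT (SD, n = 2 each). The difference of -1.22 ± 0.21 (SE), a level in 4P of 0.428 times that in WT, had an adjusted p of 0.00695, and 4.98% of all genes were called at that time, with 2.3% of all genes called lower in 4P. HTA2, its divergent partner, stood at -1.12 and -0.41 in 4P, against -1.11 and -0.04 in WT, and its difference of -0.19 ± 0.37 (95% interval -0.97 to 0.58) was not called. HTB1, the other H2B gene, differed by -0.44 ± 0.16 (adjusted p = 0.108). The difference between HTB2 and these genes was not tested. The HTB2 call held with median centring, with the scanner's log ratios and with the deposited value table, and was lost with slide as a block (-1.22, adjusted p = 0.182), without WT replicate 1 at 75 min (-1.34, adjusted p = 0.0753) and without 4P replicate 2 (-1.15, adjusted p = 0.125).

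HHO1 at 75 min stood at -0.70 and -0.58 in 4P, against 0.58 and 0.19 in WT. The difference of -1.02 ± 0.30, a level in 4P of 0.492 times that in WT, had an adjusted p of 0.0483, with no overlap of the arrays. Leaving out 1 array ended the call for 18 of the 32 arrays, and it was also lost with median centring (-0.90, adjusted p = 0.0814), on the scanner log ratios (-0.51, adjusted p = 0.334) and with slide as a block (-1.16, adjusted p = 0.101). By 90 min the HHO1 arrays overlapped again, with 0.83 and 0.25 in 4P and 0.85 and 0.52 in WT.

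At 75 min all 10 histone genes had a lower mean in 4P, although HHF1, at -0.33, turned to 0.20 with the scanner's log ratios and 0.20 with the deposited value table. HTA2, at -0.19, turned to 0.34 without the WT array of replicate 2 and to 0.16 without the 4P array of replicate 1, and HTA1, at -0.40, stood at 0.01 without that WT array. The WT array then left had 2 HTA1 spots saturated in the reference channel, so this value is not exact. Over single arrays left out the HTA1 difference ran from -0.82 to 0.01. The median of the 8 core genes was -0.40, against 0.00 for all genes. The 4P arrays lay below the WT arrays for 8 of the 10 genes, where this held for 27.8% of all genes and 4.98% were called. The 4 G1/S marker genes then averaged 1.23 and 1.25 in 4P, against 1.81 and 1.81 in WT, and 3 of the 4 were lower in 4P, 0 of them called. The 3 mitosis markers averaged -0.38 and -0.50 in 4P, against -0.63 and -0.75 in WT, and the 3 M/G1 markers (SIC1, EGT2 and ASH1) averaged 0.50 and 0.79 in 4P, against 0.23 and 0.23 in WT. All 6 of these were higher in 4P, 0 of them called. Of the alpha-factor response genes 2 of 3 were higher, with FUS1 called (0.71 ± 0.19, adjusted p = 0.043 in limma). At 60 min the M/G1 markers averaged -0.26 and -0.25 in 4P, against 0.74 and 0.87 in WT. All 3 were lower in 4P, with SIC1 called (-0.83 ± 0.18, adjusted p = 0.0398). The 3 MATa genes were lower too, with MFA2 called (-1.35 ± 0.23, adjusted p = 0.00569). The 4 G1/S markers were lower and the 3 mitosis markers higher at 60 min, 0 of them called. The part of these stage markers in the histone differences was not tested.

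At 45 min 9 of the 10 genes had a lower mean in 4P, and HHT1 was at 0.08. The core median was -0.27, against -0.01 for all genes. The 4P arrays lay below the WT arrays for 8 of the 10, as they did for 22.7% of all genes. With the scanner's log ratios 9 were lower as well, but HTA2 was then the higher one (0.13) and HHT1 stood at -0.14. The mitosis markers at 45 min averaged 1.35 and 1.35 in 4P, against 1.66 and 1.55 in WT, with 3 of 3 lower and 0 called, and the G1/S markers -1.54 and -1.26 in 4P, against -1.06 and -1.14 in WT, with 4 of 4 lower and 0 called. Their part in the HTZ1 difference was not tested.

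At 105 min the order was turned for most genes. The mean was higher in 4P for 9 genes and lower for HTZ1, which stood at 0.06 with the deposited value table, and HTB2 was at -0.01 on the scanner log ratios. The 4P arrays lay above the WT arrays for 7 of the 10 genes, as they did for 15.7% of all genes, and 0.371% were called. For HHT1 and HHT2 this rests on 1 array in 4P. Of the 6 histone genes with a value on all 4 arrays it held for 5, where it held for 14.7% of all such genes. HHF2 differed by 0.68 ± 0.22 (adjusted p = 0.314) and HHF1 by 0.64 ± 0.22 (adjusted p = 0.37). HHF2 stood at 0.33 and -0.17 in 4P, against -0.60 and -0.62 in WT. The core median was 0.51, against 0.00 for all genes. At that time 4 of 4 G1/S markers were higher in 4P (median 0.14), 3 of 3 mitosis markers lower (median -0.03) and 3 of 3 MATa genes lower (median -0.76), 0 of them called, and their part in the histone differences was not tested. The 4P array of replicate 1 at this time was the one with the most outlier-marked spots of all 32 (1761).

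HHT1 was the core gene with the largest positive differences at the 2 peaks. At 30 min it was higher by 0.63 ± 0.21 in 4P (adjusted p = 0.283), and at 90 min, with 1.37 and 1.48 in 4P against 0.92 and 0.60 in WT, by 0.66 ± 0.21 (adjusted p = 0.381). The arrays did not overlap at either time. Of all genes 27.6% at 30 min and 19.4% at 90 min had 4P arrays above WT arrays. Neither HHT1 difference passed over all genes.

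The histone genes can be set against each other over the arrays. Over 31 or 32 arrays, which share the 4 courses and the reference, the 28 pairs of core genes correlated at Pearson's r of 0.88 to 0.99 with a median of 0.95. The highest was HHF1 with HHF2 (0.99). The divergent couples stood at 0.94 for HTA1 with HTB1, 0.94 for HTA2 with HTB2, 0.95 for HHT1 with HHF1 and 0.97 for HHT2 with HHF2. HHO1 correlated with the core genes at 0.72 (HHT1) to 0.89 (HTB2) and HTZ1 at 0.53 (HHT1) to 0.75 (HTB2). HHO1 and HTZ1 correlated with each other at 0.83, and of the core genes HTB2 was the nearest to both.

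**Figure D5:**
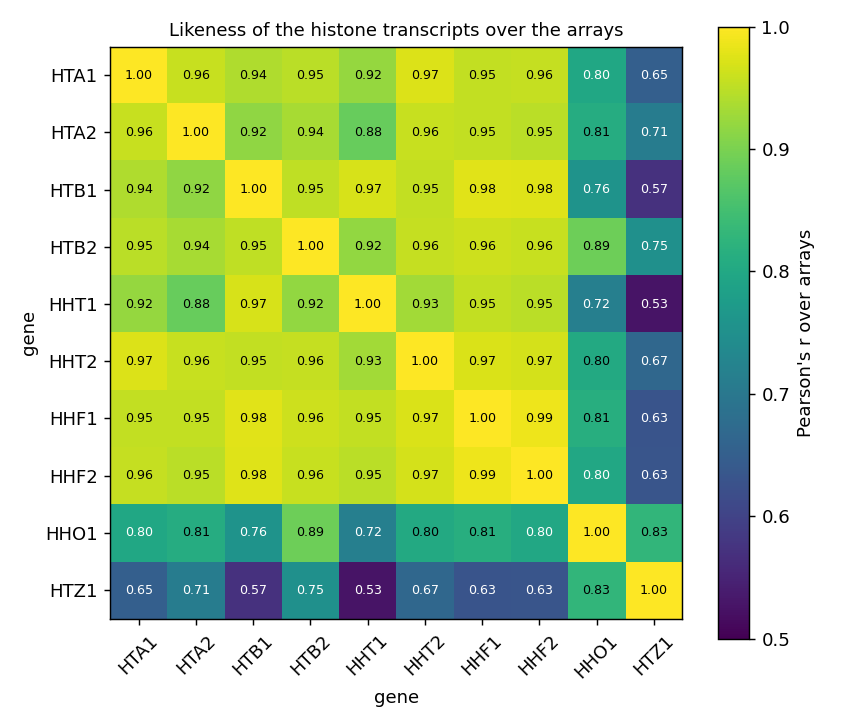
Pearson's r between the log2 ratios of each pair of histone genes over the arrays on which both have a value (31 or 32), with genes on both axes and r as colour and number. The 8 core genes correlate at 0.88 and above, HHO1 with them at 0.72 to 0.89 and HTZ1 with them at 0.53 to 0.75.

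Genes outside the set were ranked by the same measure among 5723 genes with a value on all 32 arrays. Nearest to the core mean were SPC98 (r = 0.88), which encodes a part of the gamma-tubulin complex, STU2 (0.87), which encodes a microtubule-binding protein, CIN8 (0.87), a kinesin motor gene, SUR2 (0.87), a sphingolipid hydroxylase gene, and MFB1 (0.86). Nearest to HHO1 were GIC1 (0.90), which encodes a Cdc42 effector in budding, PMI40 (0.90), a mannose-6-phosphate isomerase gene, ALG7 (0.90), which acts at the first step of N-glycosylation, STU2 (0.89) and the cell wall gene SRL1 (0.88). HTZ1, over 31 arrays, was nearest to PLB2 (0.92), a phospholipase B gene, ENV9 (0.91), the separase gene ESP1 (0.90), the B-type cyclin gene CLB3 (0.90) and the spindle checkpoint kinase gene MPS1 (0.87). STU2 was thus the one gene among both the 5 nearest to the core mean and the 5 nearest to HHO1.

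In a list of 15 regulators of histone genes, 8 changed over time in 4P and 11 in WT, beside 40.4% of all genes in 4P and 35.6% in WT. The list included the 4 mutated and tagged loci. Of these, HCM1, YOX1 and YHP1 were among the genes called in both genotypes, and TOS4 was called in neither. SPT21, which acts with Spt10 on histone promoters, ranged over 3.25 in 4P and 3.39 in WT, and its peak of 2.26 in 4P and 2.25 in WT came at 15 min, 1 sample before the core genes. SWI4, the DNA-binding part of the G1/S factor SBF, also peaked at 15 min, at 2.41 in 4P and 2.28 in WT. YOX1 ranged over 1.98 in 4P and 2.31 in WT. HIR2, a subunit of the HIR repressor complex, was lower at 75 min, with means of -0.21 in 4P and 0.39 in WT, a difference of -0.60 ± 0.17 (adjusted p = 0.0461). YHP1, one of the mutated and tagged loci, was called lower at 30 min (-2.57 in 4P and -1.69 in WT), 45 min and 90 min, with adjusted p values of 0.0255, 0.0263 and 0.0486. None of these 4 calls was kept with slide as a block, where the adjusted p was 0.271 for HIR2 and 0.756, 0.149 and 0.542 for YHP1 at 30, 45 and 90 min. None was kept with median centring either, with adjusted p values of 0.113 for HIR2 and 0.0968 to 0.228 for YHP1. The YHP1 calls were also lost on the scanner log ratios (adjusted p of 0.0596 to 0.413), and those at 45 and 90 min with the deposited value table (0.363 and 0.106). HIR2 lost its call without any 1 of 16 single arrays, and YHP1 without 4, 4 and 22 of them at those times, with no change of sign. HIR1, HIR3 and HPC2, the other HIR genes, were not called between the genotypes at any time.

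Of 13 genes for histone chaperones and for modifiers of H3 and H4, 7 changed over time in 4P and 5 in WT. Beside them, 40.4% of all genes did so in 4P and 35.6% in WT. The count in WT was near that share, and 0 of the 13 differed between genotypes at any time in limma. RTT109, the H3 lysine acetyltransferase gene, had a range of 1.63 in 4P and 1.57 in WT. HIF1, a histone chaperone gene, ranged over 1.00 in 4P and 1.25 in WT, and RLF2, the large subunit of chromatin assembly factor CAF-1, over 1.28 in 4P and 1.20 in WT. Of 15 genes for H2A.Z deposition and other histone variants, 5 changed over time in 4P and 3 in WT. The shares of all genes were again 40.4% and 35.6%, and 0 of the 15 differed between genotypes. BDF1, a bromodomain protein of the SWR1 complex, had the widest range, 0.96 in 4P and 1.12 in WT, ahead of the centromeric H3 gene CSE4 (0.96 in 4P and 0.87 in WT) and SWR1 itself (0.83 in 4P and 0.81 in WT). Of these 15 genes 9 to 13 had a higher mean in 4P at each of the 8 times, and 14 over the whole course, where their median difference was 0.09 against 0.00 for all genes. Over the whole course 0 of the 15 were called. The 8 times share the same 4 courses, and the share of all genes with a higher mean in 4P was not determined.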

How the data were processed

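RNA of 32 samples was measured on 2-colour Agilent arrays scanned with Agilent Feature Extraction (version 10.7.1.1), as the submitters' processing notes state. Per the file headers, the authors' scanner files give each spot's median signal and background intensity, linear, beside Cy5 over Cy3 as log10. The deposited series table holds log2 values (column medians -0.04 to 0.02), with a normalisation that the sources used here do not give. Per the labels, synchronised RNA was Cy3-labelled in replicate 1 and Cy5-labelled in replicate 2.

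The medians went through normexp (offset 50) and loess in limma 3.58.1 (R 4.3.3), where control spots and spots the scanner marked as outliers had weight 0. The marked spots were dropped, spots averaged, and ratios turned to sample over reference. A probe was kept if well above background on at least 1 whole group, leaving 6205 genes. 16 group means were fitted to 32 arrays, with Benjamini-Hochberg adjustment over all genes for each contrast, at 0.05. Errors marked SE are those of the fit. Symbols came from the array files and RefSeq's R64 gene table. The members and lists were chosen with earlier results of these data known. The genes named are all 10 members, the 5 genes most like each of 3 targets and, from 3 lists, the 3 with the largest WT range and those called between genotypes, besides HIR1, HIR3, HPC2 and the marker genes. The code was tested on simulated data.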

Additional observations from a re-analysis of the deposited data

How the results depend on the processing

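None of the 3 differences between genotypes and 112 steps of the 10 histone genes that were called changed sign under any alternative. Some of these steps lost their call under at least 1 alternative. No comparison of the 2 peaks was called with the processing described above. Of those 20 comparisons 13 changed sign under at least 1 alternative. All 10 genes kept their call over time in WT and in 4P under the alternatives run, except that without the 4P array at 105 min, replicate 2, HTB2, HHT1, HHT2 and HTZ1 had no value in that group and 6 to 10 genes were called in 4P with single arrays left out. Each of the 3 called differences between genotypes was lost under at least 1 alternative. At 45 min 0 of the 10 were called with median centring, the scanner's log ratio, the deposited value table, slide as a block or outlier-marked spots kept. At 75 min 1 was called with median centring, the scanner's log ratio or the deposited table, and 0 with slide as a block. With single arrays left out the counts were 0 to 1 at 45 min, 0 to 2 at 75 min, 0 to 1 at 90 min (the 1 being HTZ1) and 0 to 1 for the test of dependence on time (HTB2 without the 4P array at 0 min, replicate 1). They were 0 to 1 at 0 min (HHF1 without that same array) and 0 to 1 at 105 min (HHF2 without 4P replicate 2). HTZ1 at 90 min was called (1 of 10) with a replicate block, with an adjusted p of 0.0216, and with both arrays of slide 1 left out, an alternative added after seeing the data, with an adjusted p of 0.0318. Over the whole course 3 genes were called with a replicate block (HTB2, HHO1 and HTZ1). HHT1 was the 1 gene called for 90 minus 30 min in each genotype with the scanner's log ratio or the deposited table.

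For all genes, the change over time in 4P called 1556 with the scanner's log ratio, against 2506. The test of dependence on time called 5 genes, and 0 with the scanner's log ratio, 30 with a replicate block, 47 with the time course as a random block, 13 when slide was the block, 2 without the slide 1 arrays and 2 to 12 without single arrays. At 45 min 10 genes were called, and 3, 2 and 20 with the scanner's log ratio, the deposited table and a replicate block, and 1 to 12 without single arrays. At 75 min 309 genes were called, and 99 with median centring, 742 with the scanner's log ratio, 853 with the deposited table, 1000 with a replicate block, 6 when slide was the block, 493 without the slide 1 arrays and 1 to 419 without single arrays (1 without WT replicate 1 at 75 min). For the step from 0 to 15 min in 4P 3 histone genes rose with the scanner's log ratio or the deposited table, 2 with slide as a block and 1 to 8 without single arrays. From 90 to 105 min in 4P 3 fell with the scanner's log ratio and 2 to 6 without single arrays. In WT the counts were 4 to 7 from 0 to 15 min and 4 to 8 from 75 to 90 min without single arrays.

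Of 77 differences between genotypes that were not called, 38 changed sign under at least 1 alternative. Same-numbered replicates deviated together at r = 0.05 to 0.37 across genes, and at 45 min by 0.05 only, so the numbers were not taken as pairs of cultures, although they also mark the dye orientation, and the replicate block also gave HTB1 at 75 min an adjusted p of 0.0374. Leaving out 1 array unbalances the dyes of its group. Leaving out saturated spots, a choice also added after seeing the data, changed no call of a difference between genotypes. The planned comparison of several probes per gene could not be run, since each histone gene has 1 probe. The 2 arrays per group and the saturated spots of HTA1 limit the precision.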
